A study of Mus musculus with 5 samples.

Results

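The 10 genes studied here belong to the tumour necrosis factor (TNF) family and were measured in microglia, the resident macrophages of the brain, by bulk RNA sequencing. They are the ligands Tnf, Tnfsf8, Tnfsf9, Tnfsf10, Tnfsf12 and Tnfsf13b, and the receptors Tnfrsf1a, Tnfrsf1b, Tnfrsf14 and Tnfrsf13b. The choice was by gene symbol, and all 10 were found among the 41388 genes of the count table. All mice were C57Bl/6, aged 4 weeks, and received 2 mg of tamoxifen on postnatal days 14 and 16. The control group (2 libraries) had the genotype eYFP-A20fl/wt Cx3cr1-CreERT2/+, with a single floxed A20 allele and, at the Cx3cr1 locus, a Cre that tamoxifen switches on, and is labelled as partially deficient. The A20 deletion group (3 libraries) had the genotype eYFP-A20Dmg and is described as fully deficient, so both groups lack some A20. Cre at Cx3cr1 is not limited to microglia, since other macrophages also use that gene, and cells were sorted on eYFP, a fluorescent reporter. The labels do not say that libraries came from separate animals, and p-values therefore measure only the spread between these samples.

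Ligands of this family are trimeric membrane proteins, several of which are also released by proteases, and each binds its own receptor or small set of receptors. Many of the receptors recruit TRAF adaptors and ubiquitin ligases that start NF-kB signalling, and some also carry a death domain that can start cell death. The enzyme A20 (gene Tnfaip3) edits ubiquitin chains and so restrains NF-kB signalling below TNF receptors, and Tnf is itself an NF-kB target in macrophages.

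The libraries held 9726334 to 15275199 counts, and 3 counts corresponded to between 0.192 and 0.306 CPM, the field's unit for a count scaled to the size of its library. All 10 microglia markers passed the filter on low counts, with summed levels of 51200 and 56500 CPM in the controls and 37300 to 41600 CPM in the deleted group. Among them Aif1 was called higher and Fcrls lower. Tnfaip3 stood at 454.1 and 94.75 CPM in control replicates 1 and 2 and at 294.6, 276.9 and 347.5 CPM in A20 deletion replicates 1 to 3 (log2 fold change 0.16, edgeR adjusted p = 0.881), and counts over all exons do not check a deletion of some of them. Mitochondrial transcripts took 0.847% to 1.19% of counts in the controls and A20 deletion replicate 1 but 4.63% and 3.56% in A20 deletion replicates 2 and 3, and genes longer than the median held 37.8% and 38.5% of tested counts in those, against 44.9% to 48% in the other libraries. Xist was counted 780 and 616 times in control replicate 1 and A20 deletion replicate 1 and 0 times in the others. Of 74 markers of 10 other cell types 45 could be tested, of which 2 were higher (the monocyte gene Plac8 and the astrocyte gene Aldh1l1) and 0 lower by edgeR. Astrocyte markers, led by Slc1a3, summed to 173 CPM at the lowest (control replicate 1) and 400 CPM at the highest (A20 deletion replicate 3). The groups overlapped in that sum, since A20 deletion replicate 1 lay between the controls. Oligodendrocyte markers, led by Mbp, summed to 95.8 and 114 CPM in the controls. After A20 deletion they summed to 120 CPM in replicate 1 and 216 CPM in replicate 2. In both lists A20 deletion replicates 2 and 3, with the high mitochondrial and low long-gene shares, held the highest sums. The part of these shares in the marker sums was not tested. The sums ranged over the 5 libraries from 52.2 to 113 CPM for border macrophages (led by Mrc1) and from 2.5 to 9.59 CPM for neurons (Snap25). Those of dendritic cells (14.5 to 21.5 CPM) and endothelial cells (59.1 to 118 CPM) held markers that differed in opposite directions. Itgae had 10.53 and 10.52 CPM in controls and 2.426 to 6.603 CPM after A20 deletion, while Zbtb46 had 4.339 and 5.26 CPM and then 7.971 to 8.658 CPM. Pecam1 had 50.58 and 53.11 CPM and then 26.25 to 35.22 CPM, while the other 4 endothelial markers were higher in every A20 deletion library than in either control, as in Kdr (13.37 and 12.19 CPM, then 56.14, 17.92 and 17.32 CPM).

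One member rose. Tnfsf13b, which encodes the B cell survival factor BAFF, was called higher in the A20 deletion libraries, and the remaining 9 members did not pass (edgeR quasi-likelihood test, Benjamini-Hochberg adjusted p under 0.05 over 12240 genes). Over all tested genes 2.08% were called higher and 0.507% lower, 2.59% in either direction, and 80.4% of the calls were higher (65.5% after each library's trend with gene length was removed). The count of members lower was 0 by edgeR, by DESeq2 and by limma-voom, and at an unadjusted p under 0.05 it was 1, Tnfrsf1b, beside 2 higher, Tnfsf13b and Tnfsf10. That is 3 of 10 members, where 21% of all tested genes lay under that p (12.8% higher, 8.26% lower). For 3 of the 10 members the groups did not overlap (2 higher, 1 lower), beside 40.2% of all tested genes (21.8% higher, 18.5% lower). The median log2 fold change was 0.19 over the members, 0.95 over the 6 ligands and 0.03 over the 4 receptors, beside 0.05 over all tested genes. These medians rested on single libraries: the ligands' value went to 1.54 when control replicate 1 was left out, to 0.49 when control replicate 2 was, and to 0.52 when A20 deletion replicate 1 was, and that of the receptors took both signs (-0.18 without control replicate 1, 0.09 without control replicate 2). With a library left out, that of all members lay between 0.12 (control replicate 2) and 0.35 (A20 deletion replicate 3), with 0.34 for control replicate 1, and it was -0.22 after the length trend was removed, where that of all genes was -0.12.

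**Figure D1:**
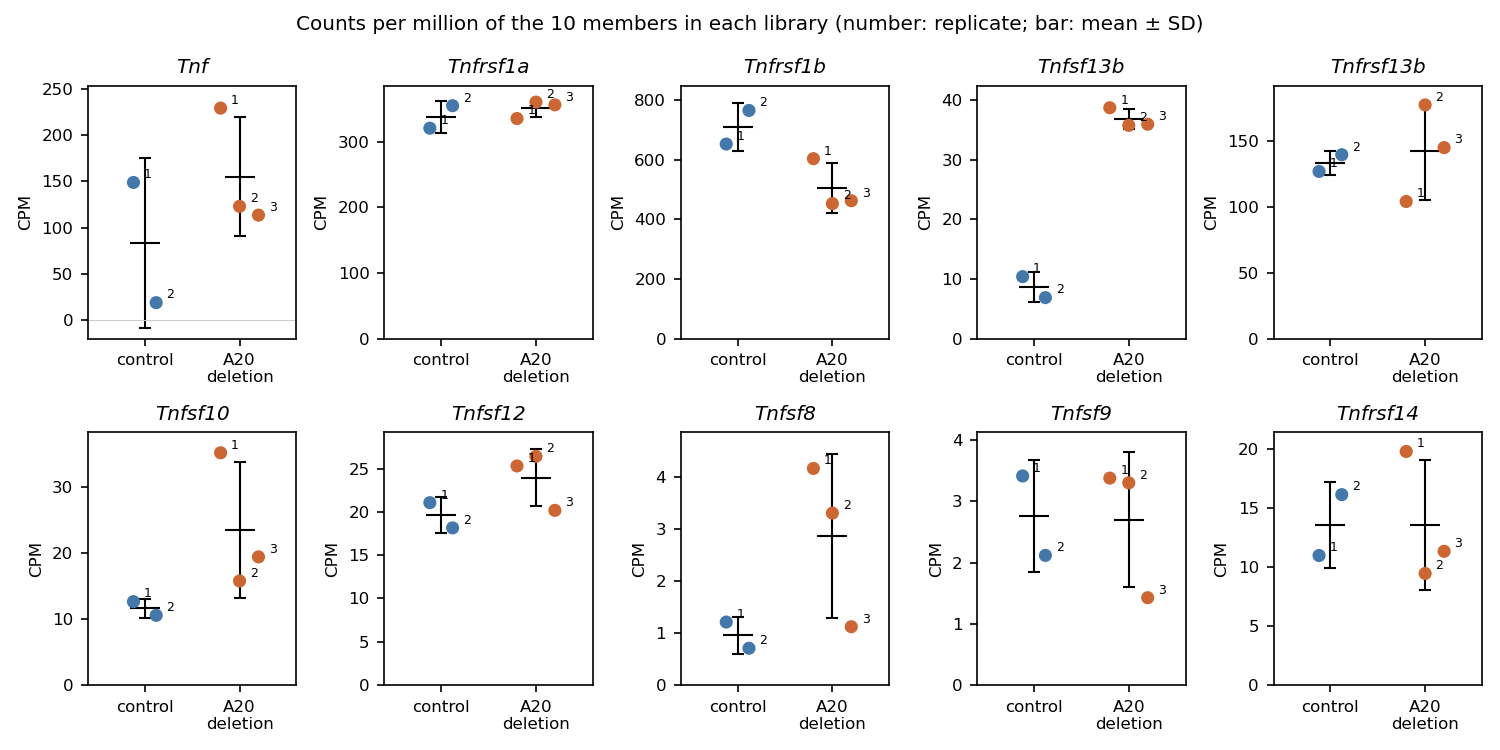
Level of each of the 10 members in CPM (vertical axes, starting at or below 0) in the 2 control and 3 A20 deletion libraries. Numbers beside the points are replicate numbers, and the bar is the mean ± SD. Tnfsf13b lies at 35.77 to 38.73 CPM in the A20 deletion group, above 10.39 and 6.864 CPM in the controls, while the 2 controls of Tnf lie far apart.

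Promoters were read for the 8 members that have a window in the RefSeq table (GRCm38.p6, 250 bases before to 50 after each annotated start, 9 windows). They were searched on both strands for the NF-kB consensus, the interferon-stimulated response element (GAAA, 2 free bases, GAAA) and the gamma-activated sequence TTCNNNGAA, which mark where NF-kB, interferon-activated STAT and IRF complexes, and STAT dimers can bind. The first was not found in these windows, the second was found for 3 of the 8 members (Tnfsf13b, Tnfrsf1b and Tnfrsf14) and the third for 2 (Tnfrsf1a and Tnfrsf1b). Among all 32851 windows the shares were 8.46%, 3.44% and 8.3%, and among the 27025 genes with a window 9.55%, 3.99% and 9.55%. The matches are shown with up to 10 bases on either side, 5′ to 3′ on the strand of the gene and with the motif in capitals, because the first 3 set the called member beside receptors that hold the same motif and were not called, and the other two are the remaining matches among the members.
Tnfsf13b, response element, plus strand, chr8:10006607-10006636: tacaaaaactGAAAGTGAAAtgcggaaggc
Tnfrsf1b, response element, reverse orientation, minus strand, chr4:145246861-145246890: ggcctgagggTTTCGCTTTCagtcaccagc
Tnfrsf14, response element, reverse orientation, minus strand, chr4:154928122-154928151: ctattttttcTTTCATTTTCacttttcctt
Tnfrsf1b, gamma-activated sequence, minus strand, chr4:145247033-145247061: agcgcattcaTTCCCGGAAgagatgctgg
Tnfrsf1a, gamma-activated sequence, plus strand, chr6:125349473-125349497: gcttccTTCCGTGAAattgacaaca
In Tnfsf13b the motif began 16 bases before 1 annotated start and 150 bases after a start farther upstream. In Tnfrsf1b the response element began 10 bases before the start, and in Tnfrsf14 it began 64 bases before the RefSeq start. The matches in Tnfrsf14 and Tnfrsf1a lie inside the gene limits given below, which are from GENCODE M21 and begin farther upstream. A match describes the letters and does not show a bound factor.

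BAFF, the product of Tnfsf13b, keeps B cells alive and signals through the receptors TACI (Tnfrsf13b), BCMA (Tnfrsf17) and BAFF-R (Tnfrsf13c). Tnfsf13b (ENSMUSG00000031497, GRCm38 chromosome 8, 10006467 to 10039072) had 10.39 and 6.864 CPM in the controls (146 and 107 counts) and 38.73, 35.77 and 35.96 CPM in A20 deletion replicates 1, 2 and 3 (447, 455 and 353 counts). Every A20 deletion library lay above both controls, and the highest of the 3 was 1.08 times the lowest, a spread smaller than that of 95.3% of tested genes. The controls averaged 8.625 ± 2.49 CPM (SD, n = 2), the A20 deletion libraries 36.82 ± 1.657 CPM (SD, n = 3), which was a 4.27-fold rise (log2 fold change 2.10, SE 0.24, edgeR adjusted p = 0.00905). The value stayed between 1.77 and 2.38 over all alternatives, but the call was lost without either control. The log2 fold change was 2.38 without control replicate 1 and 1.77 without control replicate 2. Those fits leave 1 control, and calls fell over the whole table in both, so the loss is not particular to this gene. In bulk RNA, more cells of a type and more RNA per cell cannot be told apart. Markers of T and NK cells, of which 2 could be tested and neither passed, summed to 1.14 and 1.6 CPM in the controls and 6.21 to 10.6 CPM after A20 deletion, with 11 of the 16 at 0 in both controls, and the most abundant was Cd4 (0.569 and 1.03 CPM, against 2.67 to 3.99 CPM). Monocyte markers summed to 315 and 57.8 CPM in controls and 399 to 427 CPM after A20 deletion, which was mostly Nr4a1 (293.2 and 31.05 CPM, then 342.1 to 382.2 CPM). Among them the called gene Plac8 stood at 2.988 and 2.63 CPM and then 30.67, 16.67 and 27.09 CPM, F13a1 overlapped between the groups, and Ccr2 lay lower after A20 deletion, at 5.188 to 8.144 CPM against 11.52 and 8.211 CPM. Neutrophil markers summed to 238 and 243 CPM and to 340 to 366 CPM, which was nearly all Csf3r (219.4 and 242.7 CPM, then 335.6 to 364.5 CPM). S100a8, S100a9, Camp and Ngp were each highest in control replicate 1, with S100a9 at 6.616 CPM there, 0.128 CPM in the other control and at most 3.379 CPM after A20 deletion. The part of these cells in the rise of Tnfsf13b was not tested.

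Tnfrsf13b (ENSMUSG00000010142, chromosome 11, 61126755 to 61149372), the receptor TACI, which binds BAFF and its relative APRIL (Tnfsf13), was abundant in every library. It stood at 126.8 and 139.5 CPM in the control pair and then 104, 177.3 and 144.9 CPM in A20 deletion replicates 1, 2 and 3. The groups overlapped, with A20 deletion replicate 1 lowest and replicate 2 highest of the 5. The log2 fold change came to 0.09 (SE 0.24; edgeR adjusted p = 0.832), and it took both signs over the alternatives (-0.35 to 0.25).

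The other receptors of this axis, chosen as partners of Tnfsf13b after their values were seen, follow. Tnfrsf17 had 8.323 and 13.34 CPM in the controls and 5.458, 11.01 and 5.297 CPM in the deleted group (edgeR, adjusted p = 0.419). Tnfrsf13c had between 0 and 4 counts per library and was not tested. The ligand Tnfsf13 was tested at between 0.55 and 1.43 CPM without passing (adjusted p = 0.583), and 60.0% of its exon length is shared on the same strand with the readthrough gene Tnfsfm13. These receptors are best known from B cells, and among the B and plasma cell markers Mzb1 had 0 counts in all libraries and Ms4a1 at most 0.102 CPM, while Ighm had 302 and 235.7 CPM in controls and 348.2 to 374.2 CPM in the A20 deletion group and Cd79b had 39 to 50.42 CPM in all 5.

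TNF, the product of Tnf, is the founding cytokine of the family and is made by activated microglia and macrophages. The gene (ENSMUSG00000024401, GRCm38 chromosome 17, 35199381 to 35202007, minus strand) had 148.7 CPM in control replicate 1 and 18.86 CPM in control replicate 2, from 2090 and 294 counts. It had 229, 122.9 and 113.4 CPM in A20 deletion replicates 1, 2 and 3. Control replicate 1 thus lay inside the A20 deletion range and control replicate 2 below all other libraries. The controls differed 7.88-fold, and 2.21% of tested genes with a ratio differed more between them, where the median ratio was 1.18. The controls averaged 83.77 ± 91.79 CPM (SD, n = 2), the A20 deletion libraries 155.1 ± 64.16 CPM (SD, n = 3), with a log2 fold change of 0.89 (SE 0.75, edgeR adjusted p = 0.503).

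The estimate for Tnf rested on which control was used. Leaving out control replicate 1 gave 3.0 (adjusted p = 0.133), and leaving out control replicate 2 gave 0.01 (adjusted p = 0.993). It was also 1.70 with a term for the libraries with Xist counts (edgeR adjusted p = 0.0636) and 0.43 after the length trend was removed. It passed with no filter on low counts (0.86, edgeR adjusted p = 0.00936). There the estimate hardly moved, but its SE fell from 0.75 to 0.24 and calls over all genes rose from 317 to 1701. Tnf was higher in the library with Xist counts than in those without in each group. Between libraries alike in Xist it stood at 148.7 in the control and 229 CPM in the A20 deletion library, and at 18.86 against 122.9 and 113.4 CPM. Nr4a1 followed the controls in the same order, with 293.2 and 31.05 CPM, and stood at 342.1 to 382.2 CPM after A20 deletion. It was counted in the monocyte list, whose other genes reached at most 30.67 CPM (Plac8 in A20 deletion replicate 1). The level of Nr4a1 alone therefore does not show monocytes. Neither the part of the Xist difference nor that of Nr4a1 in the level of Tnf was tested.

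Of the 8487 tested genes whose average log2 CPM reached 3, the 4 nearest to Tnf in centred log2 CPM over the 5 libraries were Nfkbid, Gadd45b, Nfkbiz and Zc3h12a, at root mean square distances of 0.267, 0.285, 0.287 and 0.355. Nfkbiz had 534.7 and 48.11 CPM in the controls and 632.7, 271.1 and 229.8 CPM in the deleted group. Nfkbid had 156.9 and 23.35 CPM and then 168.1, 146.6 and 112.7 CPM. Gadd45b had 15.01 and 3.336 CPM in controls and 14.77 to 26.25 CPM in the A20 deletion group, and Zc3h12a had 39.98 and 6.928 CPM and 22.1 to 47.82 CPM. In each of the 4, as in Tnf, control replicate 2 was lowest and A20 deletion replicate 1 highest, and none passed the test (edgeR adjusted p from 0.325 to 0.817). The 4 were picked for their likeness to Tnf in these same libraries. Their shared order and missed threshold therefore follow from the choice and are not a separate result.

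**Figure D2:**
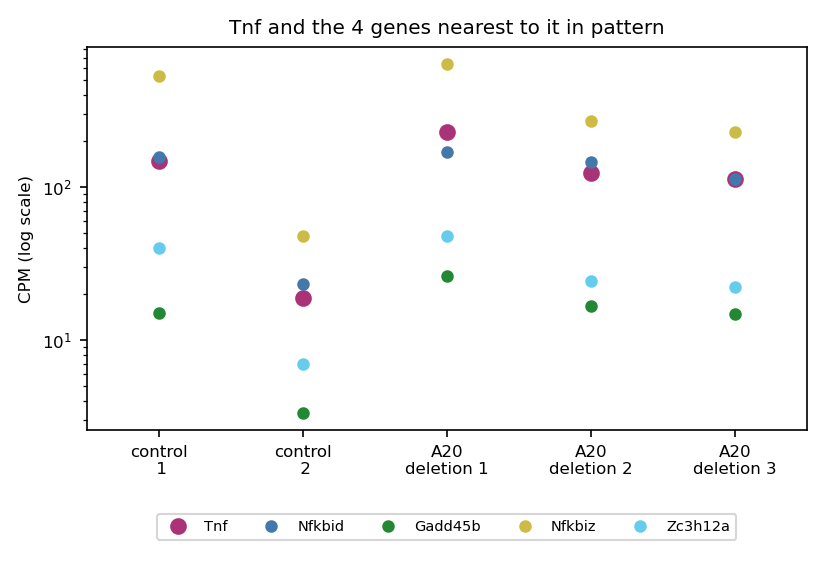
Levels in CPM (vertical axis, log scale) of Tnf and the 4 genes nearest to it in pattern, in each of the 5 libraries (horizontal axis). Control replicate 2 holds the lowest value of each gene, 18.86 CPM for Tnf, and control replicate 1 lies among the A20 deletion libraries.

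TNF acts through 2 receptors, both members. Tnfrsf1a (ENSMUSG00000030341, chromosome 6, 125349362 to 125362484) encodes the death-domain receptor TNFR1, which most cell types express. It stood at 321 and 355.3 CPM in controls, and 335.7, 360.8 and 356.6 CPM after A20 deletion. The 5 libraries thus lay close together, with the groups overlapping, and the A20 deletion libraries spread less than those of 96.2% of tested genes. Its log2 fold change of 0.05 had an SE of 0.15 (edgeR adjusted p = 0.846), and it lay between -0.26 and 0.12 over the alternatives.

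Tnfrsf1b (ENSMUSG00000028599, chromosome 4, 145213463 to 145246870) encodes TNFR2, which lacks a death domain and is found mainly on immune and endothelial cells. It stood at 652.9 and 765.6 CPM in the control pair and then 603.7, 452.9 and 462.6 CPM in A20 deletion replicates 1, 2 and 3. All 3 A20 deletion libraries lay below both controls, replicate 1 by the least. The controls averaged 709.2 ± 79.71 CPM (SD, n = 2), the A20 deletion libraries 506.4 ± 84.39 CPM (SD, n = 3), and the log2 fold change of -0.49 (SE 0.19) did not pass (edgeR adjusted p = 0.206). It passed only without A20 deletion replicate 1 (-0.66, adjusted p = 0.00797), when the 2 remaining A20 deletion libraries are those with the high mitochondrial and low long-gene shares given above; the part of these shares was not tested. With a term for the mitochondrial share it was -0.26 (adjusted p = 0.595), and with A20 deletion replicates 2 and 3 both omitted it was -0.22.

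Tnfsf10 (ENSMUSG00000039304, chromosome 3, 27317028 to 27342427) encodes TRAIL, a ligand that can start cell death through its receptor, in mice Tnfrsf10b, and is also known as an interferon-induced gene. It stood at 12.66 and 10.58 CPM in controls, and 35.26, 15.8 and 19.46 CPM in A20 deletion replicates 1, 2 and 3. Every A20 deletion library lay above both controls, and replicate 1 lay far above the other two. The log2 fold change was 1.02 (SE 0.36) and did not pass (edgeR adjusted p = 0.188, unadjusted p = 0.0259). By edgeR it passed with a term for the mitochondrial share (1.53, adjusted p = 0.00979) and with a term for Xist (1.06, adjusted p = 0.0406). It also passed with no filter (0.98, adjusted p = 0.00917). These were the passes among fits with at least 2 libraries in each group, and calls over all genes also rose in each fit that passed. With A20 deletion replicates 2 and 3 both omitted the log2 fold change was 1.61, and without A20 deletion replicate 1 it was 0.57. The receptor Tnfrsf10b had 2 to 8 counts per library and was not tested.

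Tnfsf12 (ENSMUSG00000097328, chromosome 11, 69686250 to 69695849) encodes TWEAK, which signals through Fn14, the product of Tnfrsf12a. Its level was 21.06 and 18.15 CPM in the controls and 25.3, 26.41 and 20.17 CPM in the deleted group, so that A20 deletion replicate 3 lay between the controls. The log2 fold change came to 0.29 (SE 0.20; edgeR adjusted p = 0.427) and turned to -0.23 after the length trend was removed. In GENCODE M21 48.3% of its exon length is shared on the same strand with the readthrough gene Tnfsfm13 (15 to 23 counts per library), so some of its reads may have been assigned elsewhere. Tnfrsf12a stood at 3.29 to 5.35 CPM over the 5 libraries (adjusted p = 0.992).

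The other 3 members take part in contacts with lymphocytes. Tnfsf8 (ENSMUSG00000028362, chromosome 4, 63831308 to 63861347), the ligand of CD30, had few counts: 17 and 11 in the controls (1.209 and 0.706 CPM) and 48, 42 and 11 in A20 deletion replicates 1, 2 and 3 (4.159, 3.302 and 1.12 CPM). A20 deletion replicates 1 and 2 lay above both controls and replicate 3 between them, with a log2 fold change of 1.58 (SE 0.70, edgeR adjusted p = 0.253). Its receptor Tnfrsf8 had 5 and 8 counts in the controls and 7, 36 and 17 in the A20 deletion libraries (adjusted p = 0.242).

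Tnfsf9 (ENSMUSG00000035678, chromosome 17, 57105325 to 57107757), the ligand of the T cell costimulator 4-1BB, had 3.414 and 2.117 CPM in the controls and 3.379, 3.302 and 1.426 CPM in the A20 deletion group. The groups overlapped at a log2 fold change of -0.03 (SE 0.54, edgeR adjusted p = 0.982), whose sign turned under several alternatives. On the opposite strand 14.9% of its exon length is shared with Gm11110 (0 to 5 counts per library). Its receptor Tnfrsf9 had 0 to 3 counts per library. Tnfrsf14 (ENSMUSG00000042333, chromosome 4, 154921933 to 154928563) encodes HVEM, the receptor of LIGHT (Tnfsf14) and a partner of the inhibitory receptor BTLA. It had 10.95 and 16.1 CPM in the controls and 19.75, 9.433 and 11.31 CPM in A20 deletion replicates 1, 2 and 3, so the A20 deletion libraries held both the highest and the lowest value (log2 fold change -0.00, SE 0.36, adjusted p = 0.995). Its sign also turned with the settings, from -0.46 to 0.56.

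Levels of different genes were compared per exon length, as counts divided by exon length and scaled to the same sum in each library. In the controls the mean length-scaled level was 627 for Tnfrsf1b and 440 for Tnfrsf1a, above 158 for Tnfrsf13b, and these 3 receptors did not overlap with one another. Tnf averaged 173 in the controls, but its 2 libraries, at 308 and 38.6, spanned the level of Tnfrsf13b. Tnfsf12 (43.7) and Tnfrsf14 (31.7) followed without overlap between them. Tnfsf10 (7.45), Tnfsf9 (7.24) and Tnfsf13b (4.24) came next, of which the first 2 overlapped, and Tnfsf8 was lowest at 0.85. In the A20 deletion libraries Tnfrsf1a and Tnfrsf1b averaged 386 and 381 and overlapped, and Tnfsf13b, at 15.3, overlapped with Tnfsf10 at 13. Tnf averaged 275 there, from 429, 202 and 193 in replicates 1, 2 and 3. In replicate 1 it lay above Tnfrsf1a, which was at 398. The receptors Tnfrsf1a, Tnfrsf1b and Tnfrsf13b were above Tnfsf13b in every library, whereas Tnfrsf13c, at 0.17 and 0.311, was below it in both groups.

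**Figure D3:**
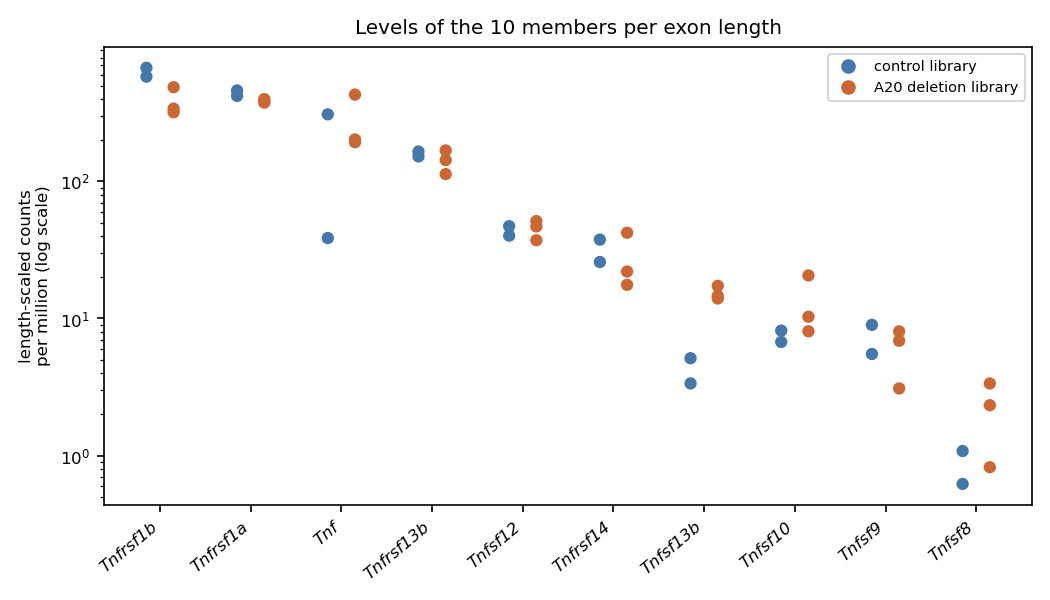
Length-scaled counts (vertical axis, log scale) of the 10 members, ordered by their mean over the 5 libraries. Each point is 1 library. By that mean Tnfrsf1b and Tnfrsf1a stand highest and Tnfsf8 lowest. Tnfsf13b lies at 14 to 17.3 in the A20 deletion libraries against 3.36 and 5.13 in the controls.

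Beyond the members, 36 further ligands and receptors of the superfamily are in the table, and 16 had enough counts to be tested. One was higher and 0 were lower by edgeR, beside 2.59% of all tested genes called in either direction. At an unadjusted p under 0.05 the counts were 3 and 1, or 4 of 16 beside the 21% of all tested genes. The list's median log2 fold change was -0.02. The gene that rose was Cd40, a costimulatory receptor by which T cells activate antigen-presenting cells, with 8 and 7 counts in the controls and 184, 162 and 133 in the A20 deletion libraries (0.569 and 0.449 CPM against 15.94, 12.74 and 13.55 CPM). Every A20 deletion library lay above both controls, a 27.2-fold rise (log2 fold change 4.77, SE 0.32, edgeR adjusted p = 0.00224). The control counts were under the filter's minimum of 10. Cd40 thus entered the test through the A20 deletion libraries, and its fold rests on few control counts. The call was lost without control replicate 2 (log2 fold change 4.55). That fit leaves 1 control, and calls fell in it over the whole table. The ligand of Cd40, Cd40lg, had 0 counts in every library, as did Tnfsf4, Fasl, Cd70, Tnfsf11, Tnfsf15 and Edar.

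The remaining receptors with the highest CPM were Tnfrsf21, Ltbr and Tnfrsf11a. Tnfrsf21, death receptor 6, had 337.2 and 397 CPM in controls and 278.9 to 311 CPM after A20 deletion (adjusted p = 0.264). Tnfrsf11a, the RANK receptor of the osteoclast factor RANKL, stood at 95.11 and 85.38 CPM and at 52.46 to 68.18 CPM (log2 fold change -0.56, SE 0.18, edgeR adjusted p = 0.154). In these 2 receptors all A20 deletion libraries lay below both controls without passing the test. Among the 16 tested genes of this list the groups did not overlap for 5 higher and 4 lower, beside 21.8% and 18.5% of all tested genes. Tnfrsf19, named with its values known, had 12 and 29 counts in controls and 56, 60 and 88 in the A20 deletion libraries. Its log2 fold change of 2.17 (SE 0.53) did not pass (edgeR adjusted p = 0.093). Ltbr, the lymphotoxin beta receptor, overlapped between the groups at 138.8 to 155.1 CPM. Of the ligands, Ltb, which forms the lymphotoxin heterotrimer with Lta and lies beside Tnf on chromosome 17, stood at 6.687 and 7.89 CPM and at 9.877, 15.64 and 12.53 CPM (adjusted p = 0.175). Tnfsf14 had 4 to 17 counts per library (adjusted p = 0.33), and Lta, the neighbour of Tnf on its other side, had 2 counts in all.

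**Figure D4:**
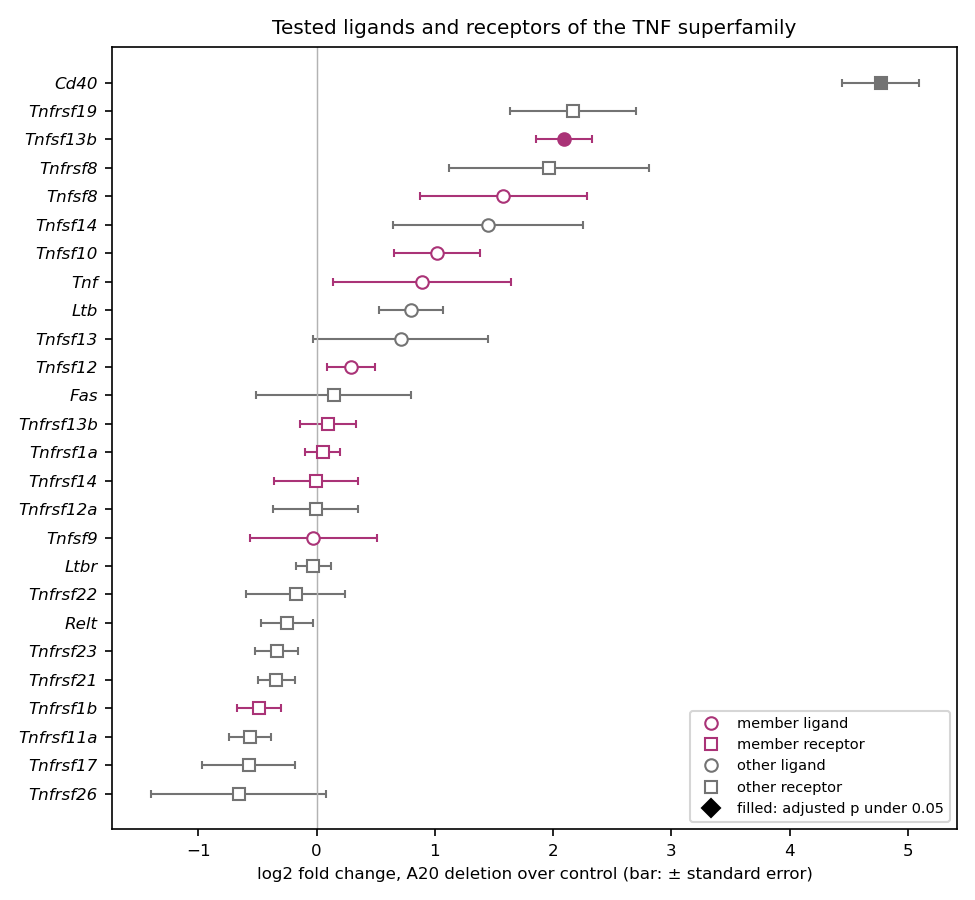
Log2 fold change of A20 deletion over control (horizontal axis, bars ± standard error) for the 10 members and the 16 other tested genes of the superfamily. Filled symbols passed an adjusted p of 0.05, which are Tnfsf13b at 2.10 and Cd40 at 4.77.

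Downstream of TNFR1, 15 genes of the receptor complex were all tested. One was higher and 0 were lower by edgeR, beside 2.59% of all tested genes called in either direction. At an unadjusted p under 0.05 the counts were 1 and 0, beside 21% of all tested genes. The list's median log2 fold change was -0.01. Birc3, the ubiquitin ligase cIAP2 and itself a known NF-kB target, rose 2.09-fold from 48.37 and 39.52 CPM to 83.09, 101.4 and 90.96 CPM (log2 1.06, SE 0.18, edgeR adjusted p = 0.0343). Its paralogue Birc2, picked with its values known, had 29.17 and 22.45 CPM and then 19.42 to 30.15 CPM, with the groups overlapping. The 3 genes of the list with the highest CPM, which is not scaled to gene length, did not pass: Tab2, a TAK1-binding adaptor, at 278.1 and 231.2 CPM and 158.5 to 252.2 CPM, the initiator caspase gene Casp8 at 182 and 196.7 CPM and 156.7 to 169 CPM, and its inhibitor Cflar at 91.54 to 129.9 CPM over the 5 libraries.

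TNF is cut from the cell surface by ADAM17, which depends on the iRhom proteins. Among 7 genes of shedding and intramembrane cleavage 1 was higher and 0 lower by edgeR, beside 2.59% of all tested genes in either direction. At an unadjusted p under 0.05 the counts were 1 and 0, beside 21% of all tested genes. The list's median log2 fold change was -0.23. Rhbdf2, which encodes iRhom2, the partner of ADAM17 in myeloid cells, rose 1.84-fold from 22.98 and 23.61 CPM to 44.53, 40.01 and 43.8 CPM (log2 0.88, SE 0.16, edgeR adjusted p = 0.043). Every A20 deletion library lay above both controls. Adam17 itself had 406.4 and 429.7 CPM in controls and 452.9, 314.2 and 303.3 CPM in the deleted group. Adam10 stood at 664 and 696 CPM and 472.1 to 679.9 CPM, and the protease gene Sppl2a at 432.2 and 461.7 CPM and 288.3 to 508.2 CPM, with the groups overlapping in each. The calls of Birc3 and Rhbdf2 were both lost when any 1 library other than A20 deletion replicate 1 was left out. In each of those fits calls also fell over the whole table, so the loss is not particular to these genes. By edgeR the adjusted p was 0.0965 for Birc3 and 0.102 for Rhbdf2 without A20 deletion replicate 2, and 0.115 and 0.169 without replicate 3. Leaving out a control left 1 control, with log2 fold changes of 0.87 to 1.17 for Birc3 and 0.81 to 0.84 for Rhbdf2. Both calls were also lost when A20 deletion replicates 2 and 3 were both omitted (log2 0.93 and 0.94). In that fit, which leaves 1 A20 deletion library, calls over the whole table did not fall. The call of Rhbdf2 was also lost with limma-voom (adjusted p = 0.0518) and after the length trend was removed (0.0516).

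**Figure D5:**
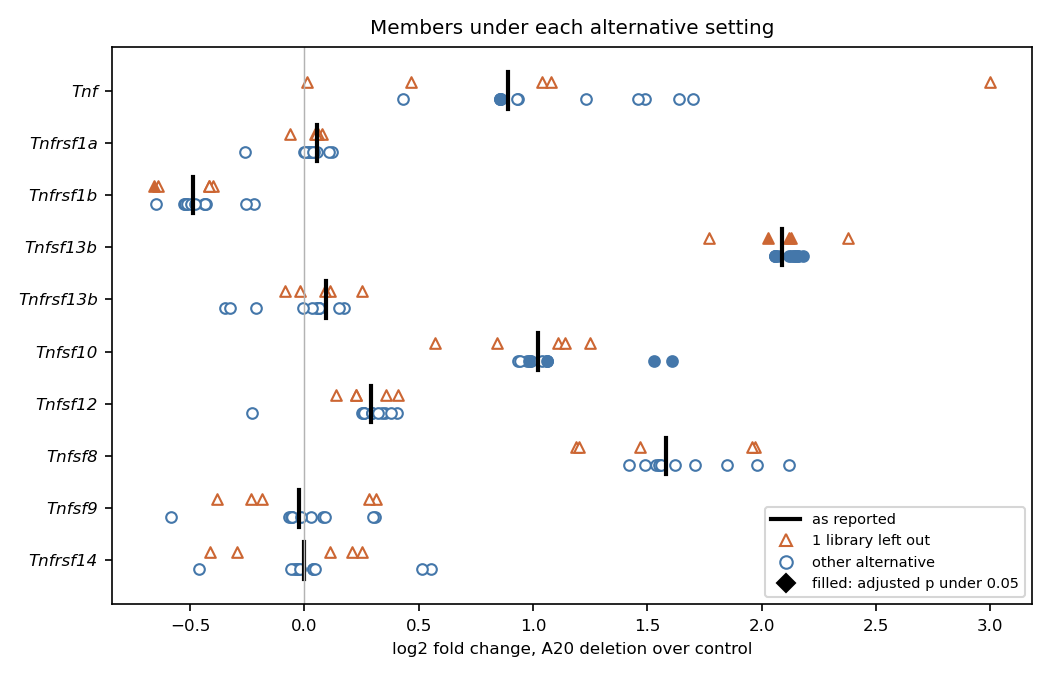
Log2 fold change of each member (horizontal axis) as reported (black bar), with 1 library left out (triangles) and under the other alternatives (circles). Filled symbols passed an adjusted p of 0.05. Tnf spreads from 0.01 to 3.0, while Tnfsf13b stays between 1.77 and 2.38.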

How the data were processed

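RNA of sorted eYFP-positive cells went into NEBNext Ultra II libraries (10 ng of input, RNA integrity number 7 or more), per the labels' protocols. The authors deposited raw read counts per Ensembl gene. Per the submitters' processing notes, the authors used STAR 2.4.0j, featureCounts, DESeq2 1.22.1 and the build GRCm38. Not given in the sources used here are the annotation, the strand setting and the handling of multi-mapping reads, so sense and antisense reads cannot be told apart.

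Of 41388 genes 40254 matched a GENCODE M21 symbol and 1134 did not. The test was edgeR 4.0.16 under R 4.3.3 (filterByExpr, minimum count 10 and total 15, TMM scaling, quasi-likelihood test, two-sided, no covariate), with Benjamini-Hochberg adjustment over all 12240 genes tested. CPM use the TMM-scaled totals of the tested genes, ± is the SD, and the standard error is the log2 fold change divided by the square root of F. No 2 libraries of a group agreed within sampling noise (chi-square per degree of freedom 14.4 to 76.5). On simulated data (a median of 11886 genes tested) the procedure recovered 18.7% of genes changed 2-fold and 78.6% of those changed 4-fold, so a missed threshold does not show equal levels. The members, lists and tests were chosen with earlier results of these data known. The genes named are the members, called genes of the other lists, the 3 of highest CPM in each list, the 4 nearest to Tnf and the marker of highest CPM for each other cell type. Receptors of the members, Tnfrsf19 and further markers were added after values were seen. Alternatives were DESeq2's size factors, upper quartile and library size alone, no filter, a filter of 5 CPM in 2 libraries, DESeq2 1.42.0, limma-voom (limma 3.58.1), a replicate block, leaving out libraries, and terms for mitochondrial share and gene length. A term for Xist was added after the data were seen.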

Additional observations from a re-analysis of the deposited data

How the results depend on the processing

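Over the members, 135 of 168 refitted values kept their direction and side of the threshold, 2 lost a call, 6 gained one and 25 changed sign, all of the last in genes that did not pass in either fit. Members higher were 3 with no filter and 2 with A20 deletion replicates 2 and 3 both omitted, with the mitochondrial term and with the Xist term, and 0 to 1 with a library left out, when members lower were 0 to 1.

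Signs turned for Tnfsf9 (0.0287 with upper quartile, 0.308 with the replicate block, 0.299 with A20 deletion replicates 2 and 3 omitted, 0.0809 with the mitochondrial term, 0.0898 with the Xist term, -0.381 to 0.314 with a library left out), Tnfrsf14 (0.0389 with upper quartile, 0.0384 with the filter of 5 CPM, 0.0452 with the block, 0.555 with both replicates omitted, 0.516 with the mitochondrial term, -0.414 to 0.25 with a library left out), Tnfrsf13b (-0.347 with both omitted, -0.328 with the mitochondrial term, -0.21 with the length trend removed, -0.00532 with the Xist term, -0.0835 to 0.25 with a library left out), Tnfrsf1a (-0.0614 to 0.0771 with a library left out, -0.000184 with both omitted, -0.262 with the length trend removed) and Tnfsf12 (-0.229 with the length trend removed). The cause was not tested.

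Other superfamily genes higher were 2 with no filter, with DESeq2 and with the Xist term, and 0 to 4 with a library left out (lower 0 to 2). Signalling and shedding genes higher were 1 with limma-voom and with the length trend removed, 0 with the replicate block and with both replicates omitted, and 0 to 2 with a library left out (lower 0 to 6). Over all genes, calls higher and lower were 1048 and 653 with no filter, 744 and 366 with DESeq2, 563 and 261 with the Xist term, 0 to 1902 and 0 to 2021 with a library left out, against 255 and 62. The 0 calls came without control replicate 2 (edgeR, 1323 genes at an unadjusted p under 0.05) and the most without A20 deletion replicate 1. Calls higher were 166 with limma-voom and 165 with the length trend removed, and calls lower 32 with the replicate block. The length correction moved the all-gene median of the log2 fold changes from 0.05 to -0.12. Same-numbered libraries of the groups correlated at 0.26 and 0.167 in their deviations from the group means over 12240 genes, and the labels do not say that a number pairs them. With the replicate block Birc3 and Rhbdf2 lost their calls (adjusted p = 0.0767 and 0.107), while Tnfsf13b and Cd40 passed. Tnfsf8 and Tnfsf9 were not tested under the filter of 5 CPM. Fits with 1 library in a group assume that it varies like the other group.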
